A study of Danio rerio with 19 samples.

Results

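The immediate early genes are described here as 10 genes chosen by name, with earlier results of these data known: fosab, junba, junbb, atf3, egr1, klf2a, klf2b, npas4a, nr4a1 and ier2b. All 10 were found among the 24886 genes that the 3 deposited count tables share, and all 10 passed the filter on low counts in every comparison. The study exposed whole zebrafish larvae to a cholesterol-lowering drug or to an insecticide at trace concentrations in water. Atorvastatin (AVS), a statin that inhibits HMG-CoA reductase, was given at 1 µg/L (AVS high, 4 libraries) or 100 ng/L (AVS low, 4 libraries). Afidopyropen (Afid), an insecticide whose target in insects is a TRPV channel of the stretch-sensing chordotonal organs, was given at 1 µg/L (Afid high, 4 libraries) or 100 ng/L (Afid low, 3 libraries). Larvae held in the medium that the labels call ERM served as the control (4 libraries). The labels name no strain, genotype, larval age or exposure time, and do not say whether libraries of a group came from separate clutches or tanks. The p-values therefore rest on a spread between libraries that may in part be technical.

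Immediate early genes are transcribed within minutes of a stimulus by factors already present in the cell, such as serum response factor and CREB, without new protein synthesis. Most encode transcription factors, and their messenger RNA is short-lived, so their levels are known to follow events just before collection, handling included. In the nervous system they follow neuronal activity, and in blood vessels the KLF2 factors follow blood flow. In cultured human endothelial cells KLF2 is also known to rise under statins.

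None of the 10 genes passed the main test, edgeR with Benjamini-Hochberg adjustment, at any exposure with counts, nor did any other gene (0% in each). Of the 10, klf2b, a zebrafish copy of the zinc finger factor gene KLF2, came closest, in AVS low. It averaged 35.2 ± 10.6 counts per M reads (CPM; SD, n = 4) in AVS low and 16.6 ± 3.33 CPM (SD, n = 4) in the control, a 2.12-fold difference, with all 4 AVS low libraries above all 4 control libraries, as for 2.12% of genes. By DESeq2, which called 0.213% of genes there, klf2b passed the threshold of 0.05. That call was lost when any library other than AVS low replicate 4 was left out. Since the 10 genes were chosen with earlier results known, these shares of all genes are not an unbiased background for klf2b. The AP-1 genes, egr1, npas4a, nr4a1, ier2b and atf3 gave 24 fold changes against the control, and the 95% interval of each lay within a factor of 2 of the control level.

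Reads assigned to genes numbered 8.63 to 18.6 M per library in the 15 libraries with counts, and a member had between 67 and 2309 reads in a library. Control replicate 2 stood apart by some marker lists. Its summed exocrine pancreas markers, a list added later, were at 2176 CPM, against 7535 to 16921 CPM in the other control libraries. Its 16 neuron markers summed to 5190 CPM, against 3366 to 3972 CPM. Its epidermis sum, 11080 CPM, and its skeletal muscle sum, 76260 CPM, lay within the range of the other control libraries. Neuron, epidermis, skeletal muscle and endothelial markers were detected in every library. In whole larvae, fewer cells of a type and less RNA per cell cannot be told apart. CPM values below are scaled over the 15 libraries together, and replicate numbers are those of the labels (AVS low has 1, 2, 4 and 5, Afid low has 1, 2 and 4).

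Levels of different genes were compared per length, as CPM per kb of gene length, averaged over the 15 libraries. junbb was highest at 68.9 ± 13.9 CPM per kb (SD, n = 15) and klf2b lowest at 4.12 ± 1.55 (SD, n = 15), a ratio of 16.7. Between them stood ier2b at 39.2, fosab at 25.5, npas4a at 25.1, junba at 21.0, atf3 at 11.0, egr1 at 8.91, nr4a1 at 6.38 and klf2a at 6.13 CPM per kb. Between neighbours in this order, junbb exceeded ier2b and junba exceeded atf3 in 15 of 15 libraries, and ier2b exceeded fosab in 14. atf3 exceeded egr1, egr1 exceeded nr4a1 and klf2a exceeded klf2b in 12 libraries each. npas4a exceeded junba in 10, nr4a1 exceeded klf2a in 9 and fosab exceeded npas4a in 7. The step between junba and atf3 was the only one between neighbours at which the ranges over libraries did not overlap. junbb stood above 96.4% of the 20144 genes tested in all libraries on this scale, and klf2b above 50%. The order rests on the deposited gene lengths, 1405 bases for junbb and 6004 for klf2b. By CPM without length, npas4a was highest at 119 and klf2a lowest at 13.4, with klf2b at 24.7.

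**Figure D1:**
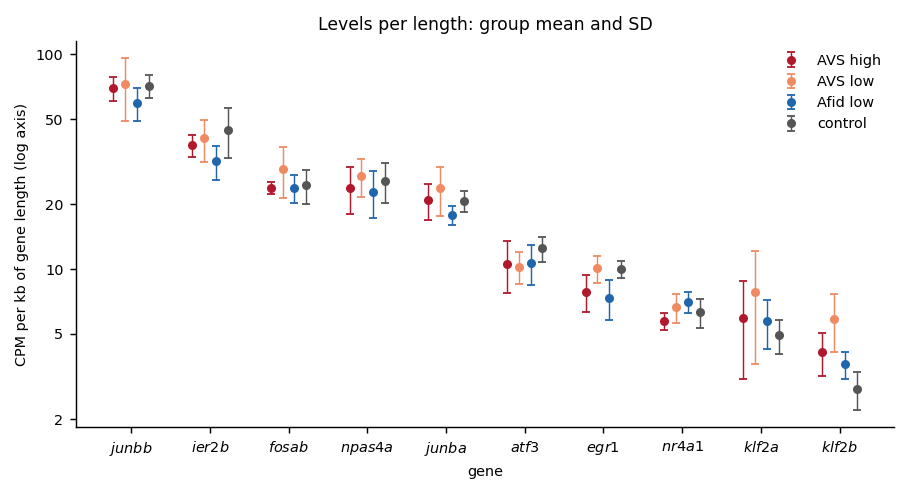
Level of each gene per kb of its length, on a log axis, as the mean and SD of the libraries of a group (AVS high, AVS low and control n = 4, Afid low n = 3), with genes ordered by their mean over the 15 libraries. The 4 groups overlap for most genes, and for klf2b the AVS low mean (5.87 CPM per kb) stands above the control mean (2.76 CPM per kb).

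The AP-1 complex is a dimer of Fos and Jun proteins, and 3 members encode its subunits. fosab, the zebrafish counterpart of FOS, lies on chromosome 20, from 46552311 to 46554440 on the minus strand; the build of these coordinates is not given in the sources used here. It had 42.9, 37.7, 39.2 and 42.7 CPM in AVS high replicates 1 to 4, 65.8, 34.5, 45.2 and 53.7 CPM in AVS low replicates 1, 2, 4 and 5, 47.7, 38.1 and 36.2 CPM in Afid low replicates 1, 2 and 4, and 35.3, 52.5, 37.9 and 41.0 CPM in control replicates 1 to 4. AVS low held both the highest and the lowest library of the 15, and all groups overlapped. The log2 fold change was −0.03 (SE 0.16) in AVS high, 0.26 (SE 0.21) in AVS low and −0.02 (SE 0.18) in Afid low, each against the control. Of the members only fosab overlaps other annotated genes, AL929435.1 and si:ch211-153j24.3 on the opposite strand. The libraries were directional, but the strand option of the counting is not given in the sources used here. Whether reads of those genes entered the fosab counts is therefore not known.

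junba and junbb are the zebrafish copies of JUNB, a Jun subunit that in mammals often restrains the activity of JUN. junba (chromosome 1, 51732979 to 51734535, minus strand) had 29.2, 32.0, 41.6 and 27.4 CPM in AVS high, 50.8, 34.0, 28.9 and 34.4 CPM in AVS low, 30.9, 25.7 and 26.7 CPM in Afid low, and 29.5, 29.3, 33.8 and 36.9 CPM in the control. Apart from AVS low replicate 1 and AVS high replicate 3, its exposed libraries lay below the highest control library. junbb (chromosome 3, 7654655 to 7656059, minus strand) had 81.0, 105, 109 and 96.5 CPM in AVS high, 149, 78.8, 101 and 78.5 CPM in AVS low, 100.3, 77.0 and 73.4 CPM in Afid low, and 81.8, 110.5, 104 and 105 CPM in the control. AVS low replicate 1 was again the highest of the 15, and the other AVS low libraries lay below the highest control library. The log2 fold changes of junba were 0.01 (SE 0.17) in AVS high, 0.19 (SE 0.19) in AVS low and −0.21 (SE 0.16) in Afid low. Those of junbb were −0.03 (SE 0.16), 0.02 (SE 0.21) and −0.25 (SE 0.17) in the same order of groups. Without AVS low replicate 1 the AVS low value was 0.0036 for junba and −0.21 for junbb, so for both genes the sign or size in AVS low rested on that library.

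atf3 encodes a bZIP factor of the ATF family that dimerises with Jun proteins and is induced by cell stress and injury. It lies on chromosome 20, from 37794633 to 37800737 on the plus strand. It had 38.5, 19.7, 26.2 and 30.1 CPM in AVS high, 23.3, 25.3, 33.9 and 28.4 CPM in AVS low, 22.6, 29.0 and 34.8 CPM in Afid low, and 34.9, 31.2, 39.4 and 29.2 CPM in the control. Its means in the 3 exposed groups were below the control mean, and no group was separate from the control. Against the control its log2 fold change was −0.23 (SE 0.20) in AVS high, −0.28 (SE 0.17) in AVS low and −0.21 (SE 0.18) in Afid low, with edgeR adjusted p of 0.745, 0.568 and 0.798 in turn. The heat shock and stress axis list held 16 genes such as hsp70l, fkbp5 and nr3c1. Among those tested, 9 were higher and 5 lower in AVS high, 9 higher and 5 lower in AVS low, and 7 higher and 8 lower in Afid low. Of all genes 49.8%, 49.2% and 50.8% were higher in turn. At unadjusted p under 0.05 by edgeR there were 0 in AVS high and in AVS low. In Afid low there were 2 (13.3%, beside 7.05% of all genes), crhb at −1.05 (SE 0.31) and dnajb1a at 0.71 (SE 0.28). 0 passed edgeR after adjustment in each. The list summed to 1623 CPM in control replicate 2, against 3500 to 4231 CPM in the other control libraries.

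egr1 encodes a zinc finger factor widely used as a marker of neuronal activity and growth factor signalling. It lies on chromosome 14, from 21332522 to 21336385 on the minus strand. It had 24.0, 25.9, 18.7 and 30.6 CPM in AVS high, 25.8, 31.3, 33.1 and 37.1 CPM in AVS low, 22.1, 28.5 and 19.0 CPM in Afid low, and 27.4, 31.4, 33.9 and 33.4 CPM in the control. In AVS high 3 of 4 libraries, and in Afid low 2 of 3, were below the lowest control library, while AVS low covered the control range. Its log2 fold change was −0.34 (SE 0.18; unadjusted p = 0.0765, adjusted p = 0.605 by edgeR) in AVS high, 0.01 (SE 0.16) in AVS low and −0.43 (SE 0.18; unadjusted p = 0.0338, adjusted p = 0.688 by edgeR) in Afid low. Neither passed the threshold after adjustment.

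npas4a encodes a bHLH-PAS factor that, among immediate early genes, is unusually selective for neurons and for calcium entry. It lies on chromosome 14, from 30636955 to 30642819 on the minus strand. It had 95.3, 137, 83.4 and 138 CPM in AVS high, 139, 89.6, 138 and 148 CPM in AVS low, 82.4, 137 and 107 CPM in Afid low, and 117, 151, 128 and 90.6 CPM in the control. Each group spanned a ratio of 1.65 to 1.67 between its highest and lowest library, so the spread was alike in all groups and wider than the differences between their means. Against the control, npas4a had a log2 fold change of −0.10 (SE 0.21) in AVS high, 0.08 (SE 0.20) in AVS low and −0.15 (SE 0.21) in Afid low. The 16 neuron markers summed to 3016 to 3873 CPM in AVS high, 2740 to 3948 CPM in AVS low, 3602 to 3816 CPM in Afid low and 3366 to 5190 CPM in the control, and none of them was at 0 in a library. The highest control sum was that of control replicate 2, against 3366 to 3972 CPM in the other control libraries. The part of that library in the marker counts that follow was not tested. Of these markers 14 of 16 were lower in AVS high, 15 of 16 in AVS low and 13 of 16 in Afid low. Of all genes 49.8%, 49.2% and 50.8% were higher in turn. At unadjusted p under 0.05 by edgeR, 3 markers were lower in AVS high (18.8%, beside 8.75% of all genes). In AVS low 2 were lower (12.5%, beside 10.1%) and in Afid low 1 (6.25%, beside 7.05%). Those of AVS high were slc17a6a at −0.98, elavl3 at −0.72 and stmn1b, named after its value was seen, at −0.66. In AVS low stmn1b was at −0.88. edgeR called 0 in each, and DESeq2 called 1, 0 and 0, beside 0.368%, 0.213% and 0.0743% of genes. The 1 was slc17a6a in AVS high, a vesicular glutamate transporter gene, named after its value was seen. The part of these markers in the values of egr1 and npas4a was not tested.

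nr4a1 encodes an orphan nuclear receptor induced by growth factors, depolarisation and, in immune cells, antigen receptor signals. It lies on chromosome 23, from 32149269 to 32194397 on the minus strand. It had 31.4, 32.1, 37.5 and 31.0 CPM in AVS high, 30.9, 36.3, 42.6 and 43.8 CPM in AVS low, 42.0, 35.3 and 44.1 CPM in Afid low, and 29.0, 35.2, 41.1 and 39.8 CPM in the control. It was the steadiest member: the SD of its log2 CPM within groups was 0.20, lower than that of all but 17.5% of the 9354 genes with a mean of 10 to 200 CPM, whose median was 0.28. For nr4a1 the log2 fold change was −0.13 (SE 0.16) in AVS high, 0.08 (SE 0.17) in AVS low and 0.17 (SE 0.17) in Afid low.

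ier2b, a copy of the gene for the nuclear protein IER2, lies on chromosome 11, from 31038409 to 31039533 on the minus strand. It had 47.8, 42.7, 43.9 and 35.7 CPM in AVS high, 56.4, 48.5, 46.0 and 32.1 CPM in AVS low, 42.7, 30.3 and 34.0 CPM in Afid low, and 36.8, 65.3, 41.8 and 56.8 CPM in the control. Of the Afid low libraries 2 of 3 were below the lowest control library, and the AVS groups overlapped the control. For ier2b the log2 fold change was −0.24 (SE 0.20) in AVS high, −0.13 (SE 0.22) in AVS low and −0.48 (SE 0.22; unadjusted p = 0.0476, adjusted p = 0.699 by edgeR) in Afid low. Its highest library was control replicate 2, which stands apart by some marker lists. Without that library the values were −0.083 in AVS high, 0.016 in AVS low and −0.33 in Afid low.

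klf2a and klf2b are the zebrafish copies of KLF2, a Krüppel-like zinc finger factor that endothelial cells switch on under shear stress and that takes part in heart valve formation. klf2a (chromosome 22, 15898221 to 15900919, plus strand) had 16.1, 8.37, 20.2 and 7.10 CPM in AVS high, 17.3, 15.3, 6.71 and 29.1 CPM in AVS low, 11.8, 16.0 and 9.69 CPM in Afid low, and 8.15, 12.7, 10.5 and 11.7 CPM in the control. Both AVS groups reached above and below the control range, and AVS low held the highest and the lowest library of the 15, a ratio of 4.34. It was the most variable member, with a within-group SD of log2 CPM of 0.62, above 96.2% of the genes at 10 to 200 CPM. The log2 fold change was 0.27 (SE 0.31) in AVS high, 0.67 (SE 0.34; adjusted p = 0.511 by edgeR) in AVS low and 0.23 (SE 0.23) in Afid low. Leaving out AVS low replicate 5 brought the AVS low value to 0.29, and leaving out AVS low replicate 4 brought it to 0.93.

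klf2b (chromosome 2, 55665095 to 55673225, plus strand) had 18.8, 21.4, 31.3 and 27.2 CPM in AVS high, 37.9, 46.3, 20.9 and 35.8 CPM in AVS low, 24.6, 18.4 and 21.8 CPM in Afid low, and 16.9, 11.9, 19.8 and 17.7 CPM in the control. Of the exposed libraries 4 of 4 in AVS low, 3 of 4 in AVS high and 2 of 3 in Afid low were above the highest control library. In AVS low the margin was narrow for replicate 4 and wide for the other libraries. The log2 fold change in AVS low was 1.09 (SE 0.24, 95% interval 0.57 to 1.61), with unadjusted p = 0.00061 and adjusted p = 0.464 by edgeR. By DESeq2 the adjusted p was 0.0291, the same in the authors' deposited table and in the run made here. That call was lost when any library other than AVS low replicate 4 was left out: the DESeq2 adjusted p was 0.0689, 0.587 and 0.212 without AVS low replicates 1, 2 and 5, and 0.0928, 0.161, 0.0707 and 0.0572 without control replicates 1 to 4, while the log2 fold change stayed between 0.94 and 1.27. Without AVS low replicate 4 the adjusted p was 4.91e-05, and klf2a also passed DESeq2, at a log2 fold change of 0.94 with adjusted p = 0.0329; DESeq2 then called 796 genes in all, against 43 with every library and 3 to 62 with any other library left out. In AVS high klf2b stood at 0.58 (SE 0.21; unadjusted p = 0.0187, adjusted p = 0.494 by edgeR and 0.326 by DESeq2), and in Afid low at 0.39 (SE 0.20; adjusted p = 0.713 by edgeR and 0.780 by DESeq2). Control replicate 2 was its lowest library, and without it the log2 fold changes were 0.45 in AVS high, 0.95 in AVS low and 0.26 in Afid low.

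**Figure D2:**
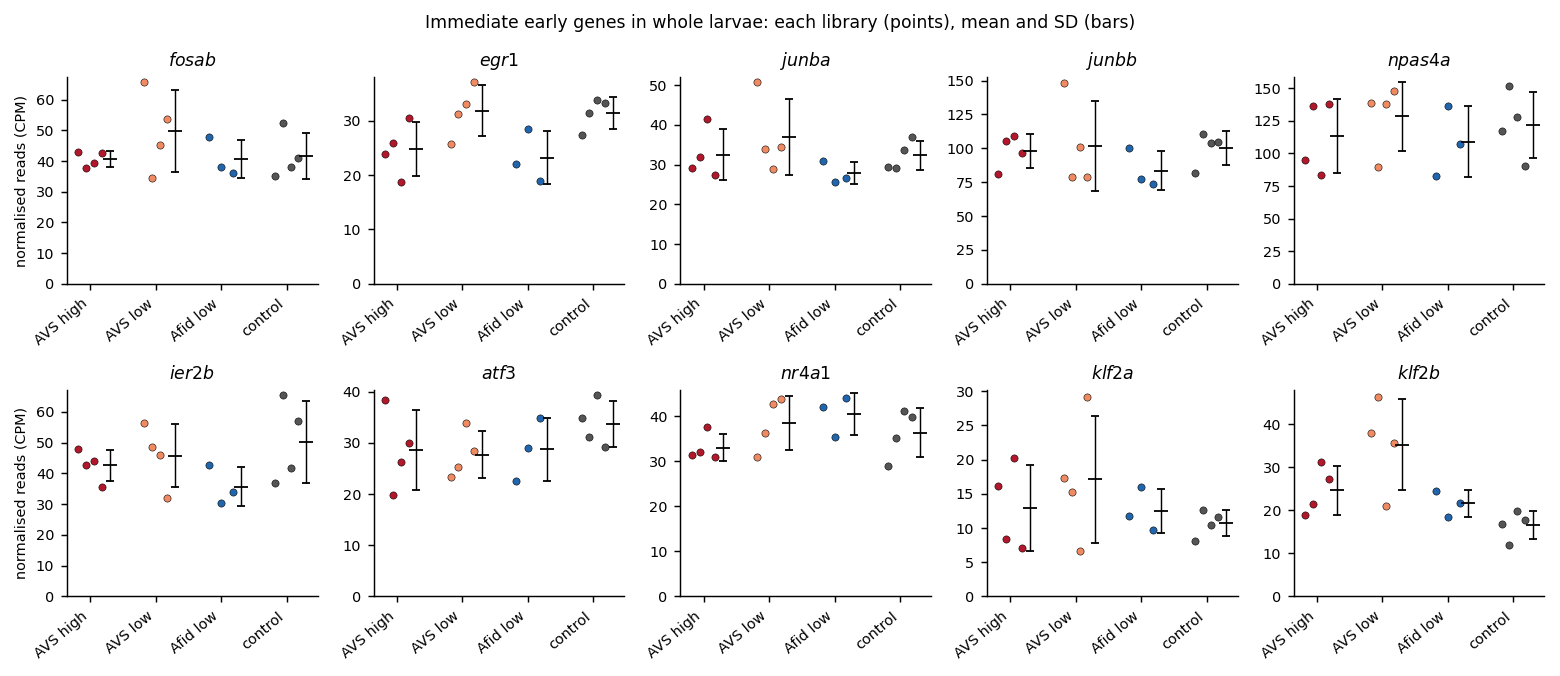
Normalised reads (CPM, linear axis from 0) of each immediate early gene, with 1 point per library, and beside the points the group mean with its SD (AVS high, AVS low and control n = 4, Afid low n = 3). For klf2b the 4 AVS low points, 20.9 to 46.3 CPM, lie above the 4 control points, 11.9 to 19.8 CPM; for the other genes AVS low overlaps the control.

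KLF2 genes are known from endothelium, and the markers of that cell type are given beside klf2b. The 19 endothelial markers summed to 246 to 338 CPM in AVS high, 235 to 335 CPM in AVS low, 233 to 269 CPM in Afid low and 238 to 262 CPM in the control, and none was at 0 in a library. In AVS low 15 of 19 were higher and 4 lower than in the control, with a median log2 fold change of 0.38, beside −0.01 over all genes tested. The smallest unadjusted p there belonged to sox7, an endothelial transcription factor, at 0.64 (SE 0.23), and to fli1a, an ETS factor of blood vessels, at 0.39 (SE 0.19); edgeR called 0 of the 19. Of the 19, 1 (sox7) had unadjusted p under 0.05 (5.26%, beside 10.1% of all genes). In AVS high 13 of 18 tested were higher and 5 lower, with a median of 0.14. There 4 were higher at unadjusted p under 0.05 (22.2%, beside 8.75% of all genes): flt4, a vascular endothelial growth factor receptor gene, at 0.71 (SE 0.30), tek, an angiopoietin receptor gene, at 0.36 (SE 0.15), and egfl7 and fli1a, named after their values were seen, at 0.67 and 0.44. In Afid low 9 were higher and 10 lower, with a median of −0.0006 and 0 at unadjusted p under 0.05. edgeR and DESeq2 called 0 endothelial markers in each. Blood and immune markers summed to 35.3 to 64.9 CPM in AVS high, 48.0 to 83.2 CPM in AVS low, 39.7 to 45.0 CPM in Afid low and 19.9 to 59.3 CPM in the control. The lowest control sum was that of control replicate 2, against 38.1 to 59.3 CPM in the other control libraries. Of the blood and immune markers tested, 4 of 7 were higher in AVS high, 7 of 9 in AVS low and 3 of 8 in Afid low. Their median log2 fold changes were 0.20, 0.54 and −0.11 in turn, the AVS low median being above that of the endothelial markers. At unadjusted p under 0.05 by edgeR there were 0 in AVS high. In AVS low there was 1 (11.1%, beside 10.1% of all genes), lcp1 at 1.02 (SE 0.31). In Afid low there was 1 (12.5%, beside 7.05%), spi1b at 1.14 (SE 0.44). edgeR and DESeq2 called 0 of them in each.

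Markers of other tissues were set beside klf2b as well. Exocrine pancreas markers, among them genes of digestive enzymes, were higher for 11 of 11 tested in AVS high (median log2 fold change 0.66), 10 of 11 in AVS low (median 0.22) and 7 of 11 in Afid low (median 0.18). Beside these counts and those of the other marker lists, 49.8%, 49.2% and 50.8% of all genes were higher in turn. At unadjusted p under 0.05 by edgeR, 2 were higher in AVS high (18.2%, beside 8.75% of all genes). They were ela2 at 1.46 (SE 0.67) and cpb1, a carboxypeptidase gene, at 1.02 (SE 0.25). In AVS low there were 0 (beside 10.1%). In Afid low 1 was higher (9.09%, beside 7.05%), pdia2 at 1.14 (SE 0.43). edgeR called 0 of them in each after adjustment. DESeq2 called 1, 0 and 0, beside 0.368%, 0.213% and 0.0743% of genes, the 1 being cpb1 in AVS high. Their sums were 6868 to 21798 CPM in AVS high, 5714 to 12333 CPM in AVS low, 6326 to 11600 CPM in Afid low and 2176 to 16921 CPM in the control, so that every group overlapped the control. The lowest control sum was that of control replicate 2, against 7535 to 16921 CPM in the other control libraries. Its part in these fold changes was not tested. Epidermis markers were higher for 10 of 10 in AVS high (median 0.32), 7 of 10 in AVS low (median 0.25) and 6 of 9 in Afid low (median 0.11). Skeletal muscle markers were higher for 7 of 11 in AVS high, 2 of 11 in AVS low and 2 of 11 in Afid low. At unadjusted p under 0.05 by edgeR, 0 epidermis markers were found in AVS high (beside 8.75% of all genes). In AVS low 2 were higher (20%, beside 10.1%), cldne at 0.52 and ppl at 0.51. In Afid low 2 were higher and 1 lower (33.3%, beside 7.05%). These were evpla at 0.95, ppl at 0.61 and, named after its value was seen, krt91 at −0.54. Of the muscle markers 0, 0 and 1 had such a p, the 1 (9.09%) being lower. edgeR and DESeq2 called 0 genes of these 2 lists. The deposited gene length of klf2b is also long, at 6004 bases. In AVS low genes of 5000 to 7000 bases had a median log2 fold change of 0.05, against −0.08 for genes of 1000 to 2000 bases. The part of these cell types and of gene length in the klf2b values was not tested.

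Member counts were set beside the same shares over all genes tested. The members were chosen with earlier results of these data known, so a count above such a share is not a test of the list. In AVS high 3 members were higher and 7 lower than the control, with a median log2 fold change of −0.07, where 49.8% of all genes were higher; edgeR called 0 of 10 members and 0 of 18929 genes (0%), limma-voom called none of either, and DESeq2 called 0 members and 61 genes (0.368%). At unadjusted p under 0.05, 1 member (klf2b) was higher, where 3.37% of genes were, and 0 were lower, where 5.39% of genes were. The AVS high and control libraries overlapped for all 10 members, and were apart for 2.25% of genes on the higher and 2.95% on the lower side. In AVS low 8 members were higher and 2 lower, with a median of 0.08, where 49.2% of all genes were higher; edgeR called 0 members and 0 of 19267 genes (0%), limma-voom called 0 of each, and DESeq2 called 1 member, klf2b, and 43 genes (0.213%). Again 1 member (klf2b) was higher at unadjusted p under 0.05, where 5.14% of genes were, and 0 were lower, where 4.97% were. It was also the 1 member of 10 whose AVS low and control libraries did not overlap, which 2.12% of genes showed in that direction and 2.27% in the other.

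In Afid low 3 members were higher and 7 lower than the control, with a median of −0.18, where 50.8% of all genes were higher; edgeR called 0 members and 0 of 19399 genes (0%), limma-voom 0 of each, and DESeq2 0 members and 15 genes (0.0743%). At unadjusted p under 0.05, 2 members (egr1 and ier2b) were lower, where 3.46% of genes were, and 0 were higher, where 3.59% of genes were. The Afid low and control libraries overlapped for all 10 members, and were apart for 4.56% of genes on the higher and 4.29% on the lower side. Of the 30 intervals of the 10 members against the control, 27 lay within 1 log2 unit of 0; the exceptions were klf2b in AVS high and klf2a and klf2b in AVS low. For the 8 members other than the klf2 pair the intervals reached from −0.96 to 0.70, that is, from 0.516 to 1.63 times the control level. The 3 comparisons share their 4 control libraries and are therefore given side by side only.

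**Figure D3:**
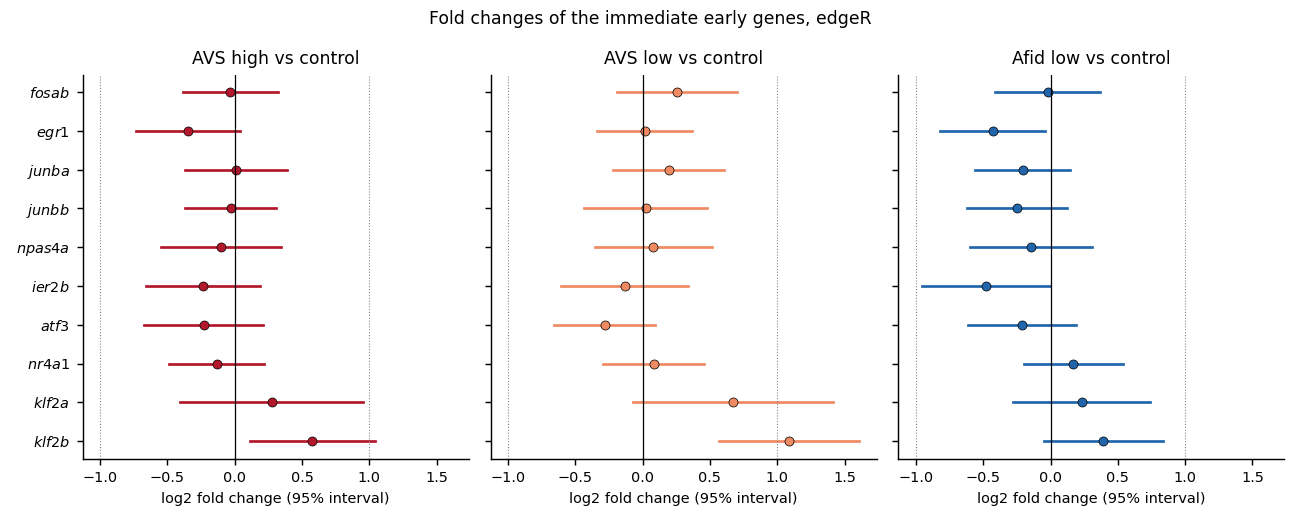
log2 fold change of each immediate early gene against the control (points) with its 95% interval (lines) from edgeR, in AVS high, AVS low and Afid low; dotted lines mark a change of 1 log2 unit. The interval of klf2b in AVS low, 0.57 to 1.61, is the one farthest from 0, and the members other than klf2a and klf2b stay within the dotted lines.

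Afid high rests on what the authors computed, without values per library. The authors' deposited table has 5 members higher and 5 lower, with a median log2 fold change of −0.03, and 0 of 10 had p under 0.05, where 7.04% of all genes did. The smallest p there was that of junbb, at −0.33 (p = 0.0605, adjusted p = 0.402 in the authors' deposited table). The authors' deposited table put klf2b at 0.35 (p = 0.0956), egr1 at −0.19, atf3 at −0.14, ier2b at −0.14, junba at −0.07, klf2a at 0.01, fosab at 0.04, npas4a at 0.08 and nr4a1 at 0.17. An adjusted p was given for 2 of the 10, junbb and npas4a, and the authors' deposited table called 9 of the 2797 genes that had one (0.322%), with no member among them.

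The 2 concentrations of atorvastatin were compared directly, as were atorvastatin and afidopyropen at 100 ng/L, in 1 fit of the 15 libraries. In AVS high against AVS low 9 members were lower and 1 was higher, with a median log2 difference of −0.20, beside 0.01 over all genes, of which 51.1% were higher; edgeR called 0 members and 0 of 20144 genes (0%), limma-voom 0 of each, and DESeq2 0 members and 5 genes (0.0249%). klf2b was the member at unadjusted p under 0.05, at 24.7 ± 5.65 CPM in AVS high and 35.2 ± 10.6 CPM in AVS low (SD, n = 4 each), a log2 difference of −0.51 (SE 0.23, 95% interval −0.99 to −0.04), with adjusted p = 0.893 by edgeR. On the lower side 4.05% of genes had unadjusted p under 0.05, and on the higher side, with 0 members, 1.39% did. The libraries of the 2 groups overlapped for all 10 members, and were apart for 0.973% of genes on the higher and 1.05% on the lower side. egr1 was next, at −0.36 (SE 0.18), with 24.8 ± 4.92 CPM in AVS high and 31.8 ± 4.70 CPM in AVS low (SD, n = 4 each).

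In AVS low against Afid low 8 members were higher and 2 lower, with a median log2 difference of 0.33, beside 0.03 over all genes, of which 53.3% were higher; edgeR called 0 members and 0 of 20144 genes (0%), limma-voom 0 of each, and DESeq2 0 of each (0%). At unadjusted p under 0.05, 2 members were higher, where 3.12% of genes were, and 0 were lower, where 3.61% were. These were klf2b, at 0.71 (SE 0.25, 95% interval 0.19 to 1.23; adjusted p = 0.693 by edgeR), and egr1, at 0.46 (SE 0.19, 95% interval 0.05 to 0.86; adjusted p = 0.693 by edgeR). egr1 averaged 31.8 ± 4.70 CPM in AVS low (SD, n = 4) and 23.2 ± 4.87 CPM in Afid low (SD, n = 3). klf2a, the member with the widest interval, was at 0.45 (SE 0.39, 95% interval −0.37 to 1.27). junba was at 0.41 (SE 0.20), fosab stood at 0.29 (SE 0.20) and ier2b at 0.36 (SE 0.22), and atf3 and nr4a1 were the members below 0, at −0.06 (SE 0.21) and −0.07 (SE 0.17). The libraries of the 2 groups overlapped for all 10 members, and were apart for 3.77% of genes on the higher and 3.67% on the lower side.

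Within groups the libraries differed in which immediate early genes were high. AVS low replicate 1 was the highest of the 15 for fosab, junba and junbb, the 3 AP-1 subunits, and its members had a median of 0.44 log2 units above their own means. AVS low replicate 5 followed at 0.30 and was the highest for egr1 and klf2a. At the other end stood Afid low replicate 4 at −0.25 and control replicate 1 at −0.22. Control replicate 2, at 0.14, was the highest for npas4a and ier2b and the lowest for klf2b. No library was high for all 10 genes: the most members above their own mean in a library was 7, in AVS low replicates 1, 4 and 5 and in control replicate 2.

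**Figure D4:**
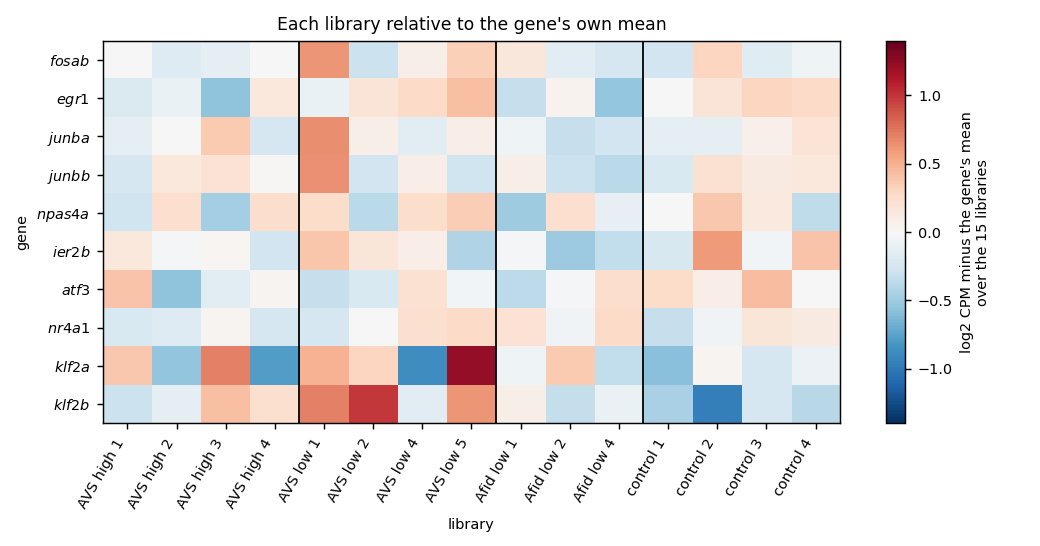
Each immediate early gene (rows) in each library (columns, vertical lines between groups), as log2 CPM minus the mean of that gene over the 15 libraries; red is above and blue below that mean. AVS low replicate 1 is red for fosab, junba and junbb (0.62 for fosab), and klf2a swings between −0.86 in AVS low replicate 4 and 1.23 in AVS low replicate 5.

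The members did not follow each other as a block across libraries. Correlations of log2 CPM over the 15 libraries, which share 4 groups and their depth, are given as a description of 45 pairs. The closest pair was junba and junbb, with r = 0.69 over all libraries and 0.67 after group means were removed, but r was 0.31 without AVS low replicate 1 and AVS high replicate 3. The libraries left out here were the 2 farthest from the median of the first gene named in a pair. junbb and ier2b had r = 0.66 (rank correlation 0.68) and kept 0.56 without AVS low replicate 1 and Afid low replicate 4. fosab and junbb had r = 0.59 and kept 0.56 without AVS low replicates 1 and 5, but their rank correlation was 0.375. fosab and junba, which can form an AP-1 dimer, had r = 0.46, and −0.14 without those AVS low replicates 1 and 5. egr1 and npas4a, the markers of neuronal activity, had r = 0.53, and 0.40 without AVS high replicate 3 and Afid low replicate 4. The pair klf2a and klf2b had r = 0.44, and atf3 and klf2b had the lowest of all, r = −0.46.

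Among the 17206 genes with a mean of at least 20 reads, the genes whose log2 CPM followed a member most closely over the 15 libraries (the 3 of highest r for each member) included no other member; the nearest that any member stood to another was rank 50, junbb for fosab. For klf2b they were col5a2a, a fibrillar collagen gene, with r = 0.95, ptprb, the gene of an endothelial receptor phosphatase, with r = 0.94, and lpar2b, the gene of a lysophosphatidic acid receptor, with r = 0.94. All of them had their lowest library in control replicate 2. ptprb had 18.2, 20.3, 26.3 and 26.3 CPM in AVS high, 29.2, 30.8, 20.3 and 32.0 CPM in AVS low, 18.7, 20.8 and 20.7 CPM in Afid low, and 15.7, 13.8, 17.6 and 17.4 CPM in the control. Every exposed library of ptprb lay above every control library, the margin being 18.2 CPM in AVS high replicate 1 against 17.6 CPM in control replicate 3. ptprb was picked for following klf2b over these same libraries, so this separation is not evidence apart from klf2b. The share of all genes apart in this way was not counted. For fosab the closest gene was btg2, itself an immediate early gene that restrains cell division, with r = 0.84. For npas4a they included arhgap32a with r = 0.89 and sv2a, a synaptic vesicle protein gene on the list of neuron markers, with r = 0.88. socs3a, a feedback inhibitor of cytokine signalling, was among the 3 closest to nr4a1 with r = 0.79. The first gene was kcnk6 for junba (r = 0.88), nkiras2 for junbb (r = 0.89), rbx1 for ier2b (r = 0.92), si:ch211-255f4.6 for atf3 (r = 0.86), hdgfl2 for egr1 (r = 0.73), si:ch211-234p6.5 for nr4a1 (r = 0.84) and net1 for klf2a (r = 0.77). All genes named here are the top of 17206 values of r over 15 libraries, where high r also arises among unrelated genes. Shared regulation was not tested.

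**Figure D5:**
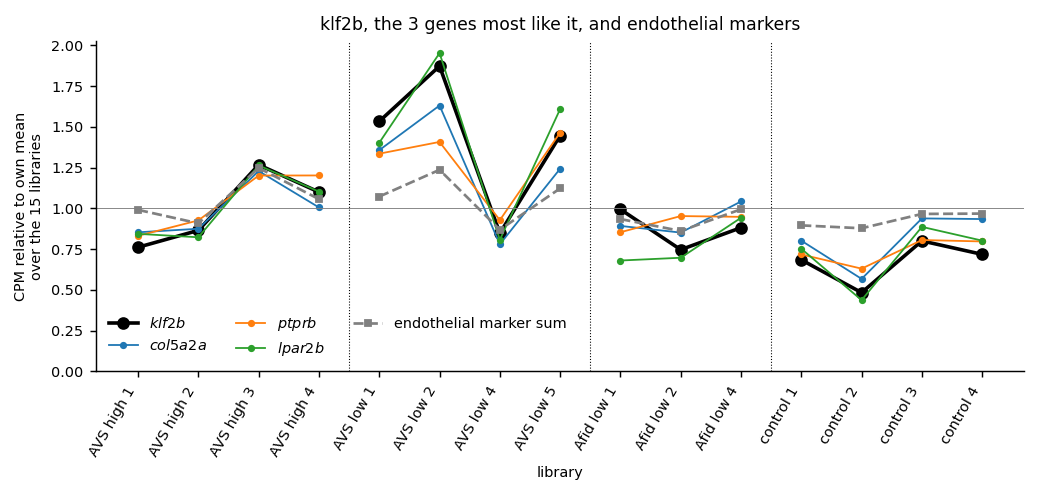
klf2b (black), the 3 genes most like it over the libraries and the sum of the 19 endothelial markers (dashed), each as CPM divided by its own mean over the 15 libraries, with libraries in groups along the axis. klf2b, col5a2a, ptprb and lpar2b are high in AVS low replicates 1, 2 and 5 and lowest in control replicate 2, and the endothelial sum runs within a narrower range, from 233 to 338 CPM. A sum of 19 genes evens out single genes, and the other 3 genes were picked for following klf2b. Their ranges are therefore not like for like.

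Further immediate early genes, the pathways upstream of them and the shear stress pathway around KLF2 were described by lists. Of 68 other immediate early genes, such as jun, fosb, dusp1 and egr3, 56 were found and 54 were tested against the control. In AVS high 28 were higher and 26 lower, with a median log2 fold change of 0.02 and 0 called by edgeR; bdnf, a neurotrophin gene, was the 1 at unadjusted p under 0.05 (1.85% of the list beside 8.75% of all genes), at −0.46 (SE 0.20). In AVS low 32 were higher and 22 lower, with a median of 0.08, and 5 were higher at unadjusted p under 0.05, 9.26% of the list beside 10.1% of all genes. By size of p these began with zfp36l1a, which encodes an mRNA decay factor, at 0.85 (SE 0.23) and ptgs2b, a cyclooxygenase gene, at 0.77 (SE 0.21). The others, named after their values were seen, were ptgs2a at 0.57, klf4, a flow-responsive relative of klf2b, at 1.22 and ctgfb, a matricellular target of YAP, at 1.03. edgeR and DESeq2 called 0 of them.

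In Afid low 20 of the 54 were higher and 34 lower, with a median of −0.09 and 13% at unadjusted p under 0.05, beside 7.05% of all genes; 1 was higher, crema, a CREB family repressor gene, at 0.66 (SE 0.24), and 6 were lower, of which jdp2b, an AP-1 repressor gene, had the smallest p at −0.65 (SE 0.24), while jun, named after its value was seen, was at −0.34 (SE 0.14). edgeR called 0 of them. In AVS low against Afid low 45 of 55 were higher, where 53.3% of all genes were, and 10 lower, with a median of 0.19. At unadjusted p under 0.05 there were 6, all higher (10.9% of the list, beside 6.73% of all genes), led by ptgs2a at 0.76 (SE 0.19) and klf11b at 0.89 (SE 0.26). In AVS high against AVS low 21 were higher and 34 lower, with a median of −0.09, and 7 had unadjusted p under 0.05, all lower (12.7% of the list, beside 5.44% of all genes), led by ptgs2a at −0.55 (SE 0.17) and sik1 at −0.45 (SE 0.17). edgeR and DESeq2 called 0 of these in either comparison.

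The upstream list held 27 genes of serum response factor and its partners, CREB, MAP kinases and MEF2 factors. In AVS high 11 were higher and 14 lower, and 7 of the 25 tested (28%, beside 8.75% of all genes) had unadjusted p under 0.05, among them mapk14a, a p38 kinase gene, at 0.48 (SE 0.16) and creb1b, a CREB gene, at −0.58 (SE 0.19). In AVS low 17 were higher and 9 lower, and 2 had unadjusted p under 0.05 (7.69%, beside 10.1%), led by mapk3, the ERK1 gene, at 0.34 (SE 0.15). In Afid low 18 were higher and 8 lower, and 1 had unadjusted p under 0.05 (3.85%, beside 7.05%), mef2aa at 0.56 (SE 0.17). edgeR called 0 in each. The KLF2 and shear stress list held 15 genes, in part of the signalling known to act upstream of KLF2 (heg1, ccm2, krit1, map3k3, mapk7) and in part of genes that respond to flow. Its counts take no account of whether a gene raises or lowers KLF2, and are no measure of pathway activity. Of these 15, 10 were higher and 5 lower in AVS high, 12 higher and 3 lower in AVS low, and 10 higher and 5 lower in Afid low. Over all genes the shares higher were 49.8%, 49.2% and 50.8% in turn. The same shares stand beside the counts of the upstream list and of the other immediate early genes. In AVS high 0 had unadjusted p under 0.05 (0%, beside 8.75% of all genes). In AVS low 4 did (26.7%, beside 10.1% of all genes), all higher, including klf4 and wnt9b, a Klf2a target in the zebrafish heart valve, at 0.90 (SE 0.29); in Afid low 2 did (13.3%, beside 7.05%), ccm2 at 0.55 (SE 0.22) and piezo1, a stretch-gated channel gene, at 0.56 (SE 0.22). klf4 is also on the list of other immediate early genes and is counted in both, and mapk7 is also on the upstream list. klf4 was low, at 7.24 ± 3.71 CPM in AVS low and 3.11 ± 1.37 CPM in the control (SD, n = 4 each). edgeR and DESeq2 called 0 of the 15 in each comparison.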

How the data were processed

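Per the labels' protocols, RNA was extracted with TRIzol, selected for poly(A) tails and made into directional libraries; the submitters' processing notes name the tools DESeq2, featureCounts, HISAT2 and fastp, with tool versions, genome build and strand option not given in the sources used here. Raw values come first: per the file headers, 3 deposited tables hold raw read counts per gene, each with the same 4 control libraries (0 genes differed between tables), plus gene length. The authors deposited in all 4 tables a log2 fold change and p-values; of Afid high only these were used, and an adjusted p written as 1 was read as not given. The normalized columns of the samples, 46 in total over the 3 tables with counts, were not used. Count columns named ERM were matched to control libraries by number.

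Counts were tested with edgeR 4.0.16 in R 4.3.3 (quasi-likelihood, TMM, filterByExpr, Benjamini-Hochberg over all genes tested, threshold 0.05): each exposure against the control in its own table, and exposures against each other in 1 fit of 15 libraries. DESeq2 1.42.0, limma-voom (limma 3.58.1), DESeq2 size factors, no filter, a replicate block, left-out libraries and the joint or separate fit were alternatives. SE is the size of a log2 fold change over the root of edgeR's F. The 95% interval uses the t distribution with edgeR's degrees of freedom. The edgeR fit was also run on counts simulated from its own dispersions, which checks the code only. The outcome of that run is not given here. log2 CPM for correlations used a prior count of 2. No 2 libraries of a group were duplicates: over 21 pairs chi-square per degree of freedom was at least 7.43. Intervals cover these libraries only, and reads without molecular identifiers are not independent molecules.

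The members and lists were chosen with earlier results of these data known; the list of exocrine pancreas markers, and DESeq2 with libraries left out, were added later. Genes named from a list are the 2 of smallest p per comparison with a mean of at least 20 reads in a group; genes like a member are the 3 of highest Pearson r. No sequences are given and promoter motifs were not searched, since no sequence table was used here. The summed epidermis and skeletal muscle markers, a check of the tissue, ranged over 7416 to 16012 and 45904 to 86433 CPM.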

Additional observations from a re-analysis of the deposited data

Results flagged for a closer look

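Of 30 groups of 4 libraries examined over the 10 genes, 1 held a library far from the others. npas4a in AVS low replicate 2 was at 89.6 CPM, while the other AVS low libraries were at 139, 138 and 148 CPM; the gap took 0.867 of the group's range on the log2 scale. Chance alone marks about 1 in 20 such groups. The neuron markers summed to 2740 CPM in the same library, the lowest of the 15, and their part in the npas4a value was not tested.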

How the results depend on the processing

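No member passed edgeR in any of the 5 comparisons, with any library left out, or by limma-voom, DESeq2 size factors, no filter on low counts, the replicate block or the other choice of libraries; DESeq2 called 1 member, klf2b in AVS low. For klf2b in AVS low the log2 fold change was 0.93 to 1.27 by edgeR with a library left out (adjusted p 0.0842 to 0.926) and 0.94 to 1.27 by DESeq2, a check chosen after seeing the data. Some directions were not firm: 12 of 140 gene values turned sign in AVS high, 11 of 140 in AVS low, 4 of 130 in Afid low, 5 of 140 in AVS high against AVS low and 2 of 130 in AVS low against Afid low. The largest values that turned were those of klf2a, at 0.45 in AVS low against Afid low and 0.27 in AVS high. By limma-voom junba in AVS high was at −0.00036 and junbb in AVS low at −0.019. Replicate numbers did not pair the samples (correlations of same-numbered libraries −0.256 to 0.134). The replicate block fit held only the 2 groups compared and the replicate numbers they share, so it lacked AVS low replicate 5. It also lacked control replicate 3 in AVS low and AVS high replicate 3 in AVS high against AVS low. With it junba in AVS high was at −0.0028 and egr1 in AVS low at −0.034. npas4a in AVS high against AVS low was then at 0.017 and klf2a in AVS low against Afid low at −0.032, and no member was called. Leaving out AVS low replicate 5 alone gave −0.067 for egr1 in AVS low and 0.066 for klf2a in AVS low against Afid low. Leaving out AVS high replicate 3 alone gave −0.031 for npas4a in AVS high against AVS low. With a library left out, the AVS high values ranged over −0.10 to 0.10 for fosab, −0.14 to 0.066 for junba, −0.11 to 0.052 for junbb, −0.042 to 0.46 for klf2a and −0.23 to 0.024 for npas4a. Those of AVS low ranged over −0.067 to 0.10 for egr1, −0.26 to 0.016 for ier2b, −0.21 to 0.13 for junbb, −0.036 to 0.22 for npas4a and −0.013 to 0.17 for nr4a1. Those of Afid low ranged over −0.16 to 0.10 for fosab and −0.34 to 0.014 for npas4a. Those of AVS high against AVS low ranged over −0.10 to 0.17 for atf3 and −0.16 to 0.16 for junbb, and atf3 in AVS low against Afid low over −0.24 to 0.11. The cause of these turns was not tested. Genes called over all genes were 0 by edgeR and 61, 43, 15, 5 and 0 by DESeq2 in the 5 comparisons, 2 without a filter in AVS high, 1 in Afid low without control replicate 4 and 1 with the replicate block in AVS low against Afid low.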
